A study of Mus musculus with 12 samples.

Results

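The 9 genes described here encode enzymes that lengthen fatty acids (Elovl1, Elovl2, Elovl3 and Elovl5) or insert double bonds into fatty acids and related chains (Fads1, Fads2, Fads3, Fads6 and Scd2). They were taken by symbol from the 35275 genes of a liver RNA-seq table in FPKM, that is fragment counts scaled by gene length and library depth. Scd1 and Elovl6, the best known lipogenic enzymes of these families, are not among the 9 and were used only for comparison. Libraries were made from whole liver of wild-type (WT) mice and of mice with a whole-body knockout of Pctp (Pctp-/-, written PCTP-/- in the labels), which encodes a protein that carries phosphatidylcholine between membranes. Mice of both genotypes ate chow or a methionine and choline depleted (MCD) diet, which is used to cause fatty liver. Each of the 4 groups, WT chow, Pctp-/- chow, WT MCD and Pctp-/- MCD, held 3 libraries from different animals. The labels give no age or sex for these mice and no length of feeding. The study reports that only male mice were used. Because the deletion is in the whole body, liver cells other than hepatocytes lack Pctp as well.

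The files gave 30486576 to 55179468 uniquely mapped reads per library. Pctp itself was at 1.21 to 2.65 FPKM in WT chow livers, 3.61 to 7.90 in WT MCD, 0.330 to 0.566 in Pctp-/- chow and 0.156 to 0.329 in Pctp-/- MCD, so the genotypes did not overlap on either diet. The chow and MCD libraries also differed in sequence quality. Between 77.6% and 79.4% of reads mapped uniquely in chow libraries and between 85.7% and 87.6% in MCD libraries, with 86.3% to 87.1% and 93.5% to 94.6% of bases at a quality of 30 or more. Diet and these differences between the libraries cannot be told apart in the diet effects below. The genotype comparisons were made within a diet.

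Fatty acids made in the liver or taken from food are lengthened by 2 carbons per round at the endoplasmic reticulum, where an elongase of the ELOVL family joins malonyl-CoA to the acyl chain and 3 partner enzymes complete the cycle. ELOVL5 and ELOVL2 act on polyunsaturated chains, ELOVL2 on the longest of them, whereas ELOVL1 and ELOVL3 act on saturated and monounsaturated chains. FADS2, the delta-6 desaturase, and FADS1, the delta-5 desaturase, alternate with these elongases to turn dietary linoleic and alpha-linolenic acid into arachidonic acid, eicosapentaenoic acid and docosahexaenoic acid. FADS3 desaturates sphingoid bases, and SCD2 is a delta-9 desaturase best known from brain. In the liver several of these genes are targets of the sterol and fatty acid sensing factors SREBP-1c, LXR and PPAR-alpha.

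The genes lie on 5 chromosomes. Fads3 (chr19:10041569-10060110), Fads2 (chr19:10062765-10101746) and Fads1 (chr19:10182888-10196877) form a cluster on mouse chromosome 19 (build GRCm38, GENCODE M21), with Fads2 on the minus strand and the other two on the plus strand. Scd2 (chr19:44293674-44306864) and Elovl3 (chr19:46131897-46135694) lie farther along the same chromosome. Elovl1 is at chr4:118428093-118432953, Elovl5 at chr9:77917364-77984519, Elovl2 at chr13:41182381-41220405 and Fads6 at chr11:115279622-115297663, 25.3 Mb from Pctp. RefSeq start sites (build GRCm38.p6) were at hand for 6 of the 9 genes. The 250 bases before the start are printed for Elovl1, Elovl2 and Elovl5, which changed with diet in both genotypes and had an entry, so that the response can be read beside the sequence. They read 5′ to 3′ on the strand of the gene, and capitals mark the motifs named in the next paragraph.
Elovl1, first start site, chr4:118427843-118428092, plus strand: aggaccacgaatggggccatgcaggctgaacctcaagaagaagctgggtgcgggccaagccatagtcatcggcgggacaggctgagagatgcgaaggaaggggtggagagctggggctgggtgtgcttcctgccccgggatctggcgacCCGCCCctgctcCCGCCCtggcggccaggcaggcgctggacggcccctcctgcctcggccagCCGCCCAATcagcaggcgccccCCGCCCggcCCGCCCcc
Elovl2, first start site, chr13:41220404-41220653, minus strand: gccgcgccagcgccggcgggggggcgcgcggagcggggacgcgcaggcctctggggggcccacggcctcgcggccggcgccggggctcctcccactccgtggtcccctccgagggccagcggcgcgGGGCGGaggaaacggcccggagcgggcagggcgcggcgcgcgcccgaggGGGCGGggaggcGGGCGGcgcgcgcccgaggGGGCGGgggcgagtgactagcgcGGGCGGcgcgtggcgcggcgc
Elovl5, chr9:77917115-77917364, plus strand: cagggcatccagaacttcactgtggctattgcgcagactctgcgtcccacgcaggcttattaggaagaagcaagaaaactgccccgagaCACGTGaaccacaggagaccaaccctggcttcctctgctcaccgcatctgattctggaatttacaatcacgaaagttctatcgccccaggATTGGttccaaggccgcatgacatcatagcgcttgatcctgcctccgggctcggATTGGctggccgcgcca

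Both strands of these windows were searched for 7 motifs, and the share of all 32851 RefSeq windows of the same length that held each motif was counted. The Elovl1 window held 5 GC boxes (GGGCGG, in 32.7% of all windows), all on the reverse strand, and 1 CCAAT box (CCAAT, in 33.8%) that shares 2 letters with one of them. The Elovl2 window held 5 GC boxes on the forward strand and was 87.2% G and C. The Elovl5 window held no GC box, 2 CCAAT boxes on the reverse strand, and 1 E-box (CACGTG, in 6.02%) at -161 to -156 from the start, and was 55.6% G and C. Among the other windows, the second Elovl1 start and Fads6 held the nuclear receptor element AGGTCA (in 14%), at 1 and 2 places. The sterol response element TCACNCCAC (in 1.05%), the cAMP response element TGACGTCA (in 1.55%) and the D-box TTATGNAA (in 3.07%) were found in no window of the 6 genes. A match describes the letters only.

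All 9 genes passed the filter for testing, a mean of at least 0.5 FPKM over the 12 libraries. In WT chow livers the order of mean levels was Fads2 (266 FPKM), Elovl5 (218), Fads1 (197), Elovl3 (120.2), Elovl2 (116), Fads6 (41.2), Elovl1 (20.95), Fads3 (3.91) and Scd2 (0.738). Fads2 overlapped with Elovl5 across libraries, Elovl5 with Fads1, and Elovl3 with Elovl2, whereas each of the other neighbours was separated in all 3 libraries. On MCD, Elovl3 dropped to the seventh place in both genotypes, at 8.89 ± 3.79 FPKM in WT and 7.87 ± 3.65 in Pctp-/- livers (SD, n = 3), and overlapped there with Fads3. Fads2 was first in WT chow and in both MCD groups, while Elovl5 (247 FPKM) and Fads2 (240.1) overlapped at the top in Pctp-/- chow livers. Scd2 was the lowest of the 9 in all 4 groups. The summed level of the 9 genes ranged from 864 to 1187 FPKM in WT chow, from 948 to 1160.0 in Pctp-/- chow, from 844 to 1027 in WT MCD and from 615 to 938 in Pctp-/- MCD. Elovl3 made up 10.5% to 13.9% of that sum in WT chow, 17.7% to 18.9% in Pctp-/- chow and at most 1.54% in any MCD library, whereas Fads2 made up 22.5% to 28.5% on chow and 33.5% to 47.4% on MCD.

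**Figure D1:**
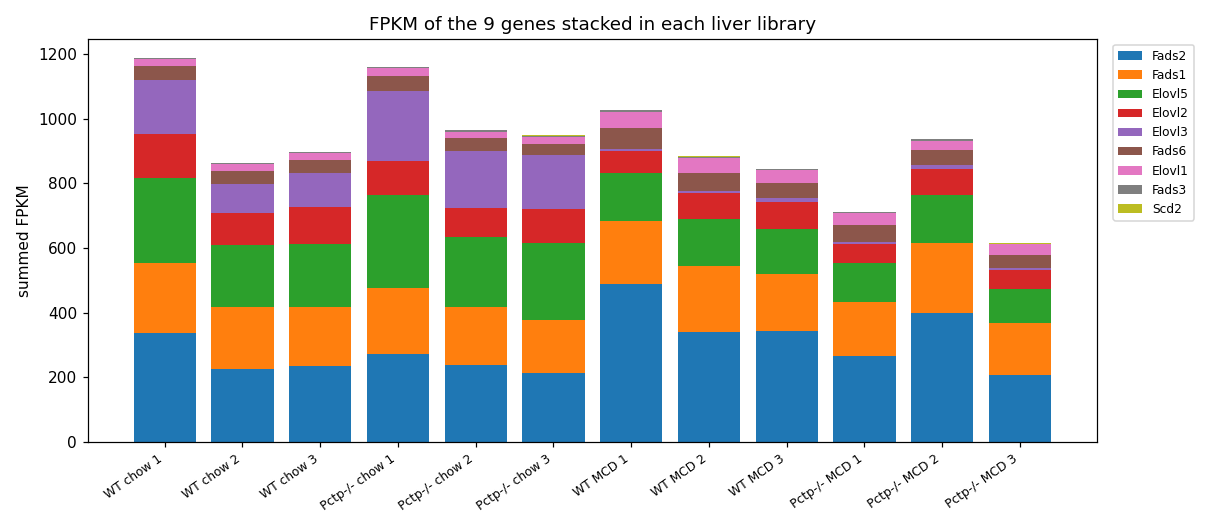
Stacked FPKM (vertical axis) of the 9 elongase and desaturase genes in each of the 12 liver libraries (horizontal axis, 3 per group). The Elovl3 segment is visible in the 6 chow libraries and is at most 1.54% of the bar in the 6 MCD libraries, while the Fads2 segment takes 33.5% to 47.4% of the bar on MCD.

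The first question was how the MCD diet changed these enzymes within each genotype. In WT livers 6 of the 9 genes changed (limma on log2(FPKM + 1), adjusted p under 0.05 over 12466 genes), beside 57% of all genes tested. Elovl1, Scd2 and Fads6 rose and Elovl2, Elovl3 and Elovl5 fell, that is 3 of 9 in each direction, where 34.5% of all genes rose and 22.5% fell. In Pctp-/- livers 4 of the 9 changed, beside 50.3% of all genes. Elovl1 alone rose, where 26% of all genes did, and Elovl2, Elovl3 and Elovl5 fell, where 24.4% of all genes did. All 4 elongases were thus called in both genotypes, Elovl1 higher and the other 3 lower, whereas Fads1, Fads2 and Fads3 were called in neither. The median change of all genes was 0.11 in WT and 0.04 in Pctp-/- livers on the log2 scale, and scaling by the median of ratios lowered the median in WT by 0.10. All log2 values are differences of mean log2(FPKM + 1), which understate the change of low genes.

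**Figure D2:**
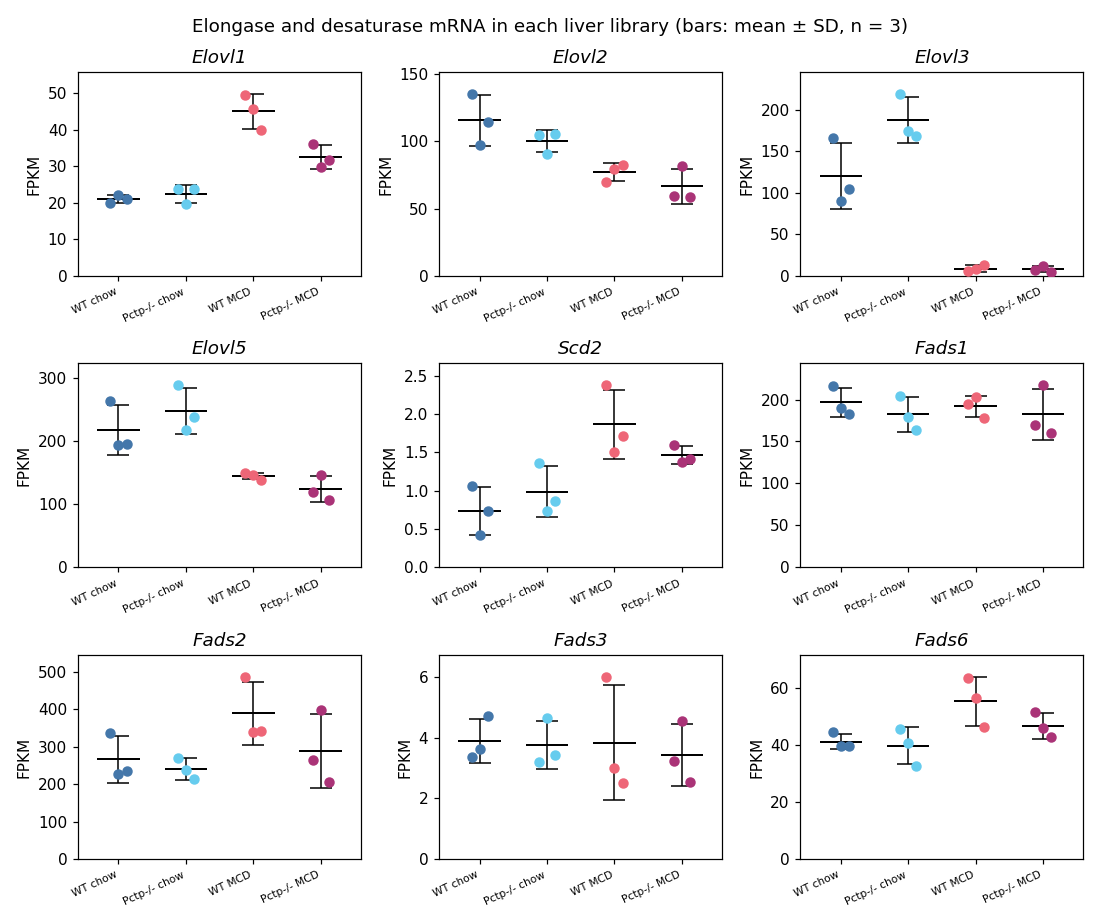
FPKM (vertical axes, from 0) of the 9 genes in each library of the 4 groups (horizontal axes), with points for libraries and bars for mean ± SD (n = 3). Elovl3 is at 4.43 to 13.01 FPKM in the 6 MCD livers against 90.5 to 219 in the 6 chow livers, Elovl1 is higher in all MCD livers than in all chow livers, and Fads1 overlaps in all groups.

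Elovl3, which makes very long saturated and monounsaturated chains, had the largest change of the 9. It was at 165, 90.5 and 105 FPKM in WT chow and 5.55, 8.10 and 13.01 in WT MCD livers. In Pctp-/- livers it was at 219, 175 and 168 on chow and 7.48, 11.7 and 4.43 on MCD. Every MCD liver was far below every chow liver. The means were 13.5-fold lower in WT (log2 change -3.64, SE 0.33, adjusted p = 2.94e-06 by limma) and 23.8-fold lower in Pctp-/- livers (-4.48, SE 0.33, adjusted p = 7.75e-07 by limma). The annotation places Elovl3 across Pitx3 on the opposite strand, and the sources used here do not say whether counting used strand. Pitx3 was at 1.03 to 10.4 FPKM on chow and at most 0.190 on MCD, and Elovl3 was the more abundant of both in every library. Hepatic Elovl3 is known as a gene of male-typical and day-time dependent expression, and both lists were followed. The 6 male-typical liver genes summed to 1498 to 2347 FPKM on chow and 524 to 650.1 on MCD. All 6 were called lower in both genotypes, beside 22.5% of all genes in WT and 24.4% in Pctp-/- livers. Of the 13 clock genes 9 were called in WT (2 higher, 7 lower), beside 57% of all genes, and 5 in Pctp-/- livers (2 higher, 3 lower), beside 50.3%, where their sums overlapped between chow (90.7 to 134 FPKM) and MCD (111 to 189). Their part in the fall of Elovl3 was not tested.

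Elovl5 and Elovl2, the elongases of polyunsaturated chains, fell by smaller amounts. Elovl5 was at 263, 194 and 195 FPKM in WT chow, 149, 146 and 139 in WT MCD, 288, 217 and 237 in Pctp-/- chow and 119.8, 147 and 107 in Pctp-/- MCD livers. No MCD liver reached the lowest chow liver of its genotype. The fall was 0.57 on the log2 scale in WT (95% interval -0.89 to -0.25, adjusted p = 0.0059 by limma) and 0.99 in Pctp-/- livers (-1.31 to -0.66, adjusted p = 0.000188). Elovl2 was at 135, 97.6 and 114 FPKM in WT chow, 70, 79.3 and 82.5 in WT MCD, 105, 90.5 and 105.5 in Pctp-/- chow and 59.2, 81.8 and 58.9 in Pctp-/- MCD livers. Again the diets did not overlap within a genotype. The Elovl2 mean on chow was 1.499 times that on MCD in WT and 1.504 times in Pctp-/- livers (log2 change -0.57 in WT, adjusted p = 0.00566, and -0.60 in Pctp-/-, adjusted p = 0.00507, limma).

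Elovl1, which supplies very long saturated and monounsaturated chains for sphingolipids, went the other way. It was at 19.9, 22.0 and 20.9 FPKM in WT chow, 49.4, 45.7 and 39.9 in WT MCD, 23.8, 19.5 and 23.9 in Pctp-/- chow and 36.1, 29.8 and 31.7 in Pctp-/- MCD livers. All MCD livers were above all chow livers, and the 3 WT MCD livers were above the 3 Pctp-/- MCD livers. The mean rose 2.15-fold in WT (log2 change 1.06, SE 0.11, adjusted p = 9.78e-06 by limma) and 1.45-fold in Pctp-/- livers (0.52, SE 0.11, adjusted p = 0.00216). Elovl1 overlaps Cdc20 on the opposite strand, which was at 0.103 to 7.90 FPKM. The 7 macrophage markers moved with diet as well, summing to 60.7 to 162 FPKM on chow and 268 to 521 on MCD. Of these, 6 of 7 were called higher in WT, beside 34.5% of all genes, and 3 of 7 in Pctp-/- livers, beside 26%. All 7 estimates were above 0 in both genotypes. Lyz2 means went from 19.9 to 211 FPKM in WT and from 23.9 to 192 in Pctp-/- livers, while Clec4f went from 41.3 to 43.5 in Pctp-/- livers. The part of these markers in the rise of Elovl1 was not tested. In whole liver, fewer cells of a type and less RNA per cell cannot be told apart.

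**Figure D3:**
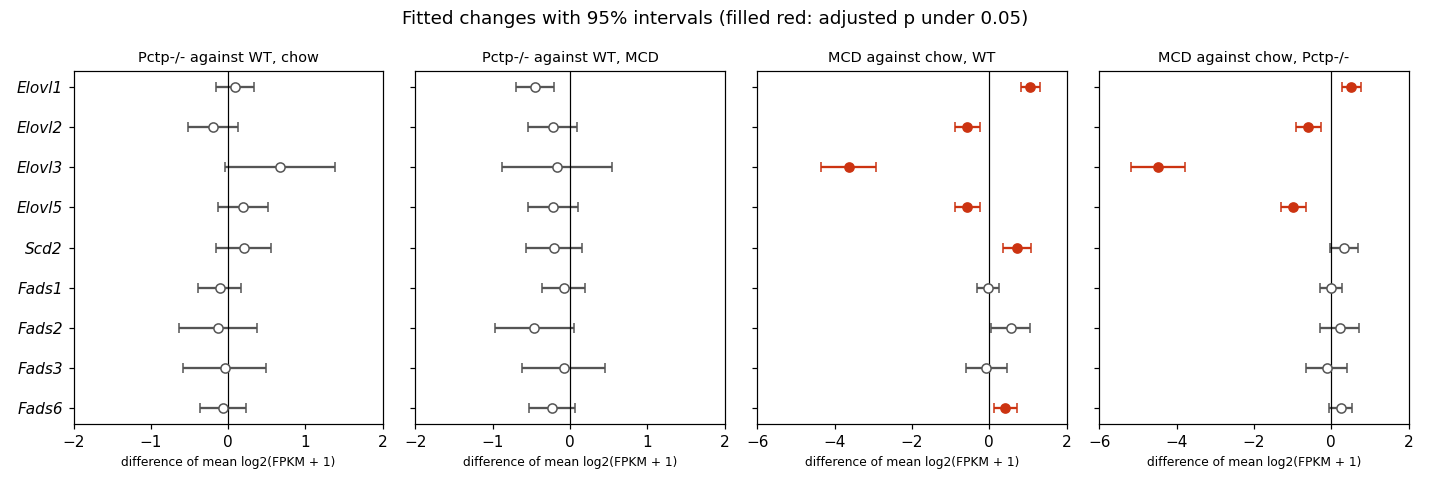
Fitted change of the 9 genes (rows) in the 4 comparisons (panels, horizontal axes in difference of mean log2(FPKM + 1)), with 95% intervals; the panels for diet have a wider axis than those for genotype, and filled red points passed an adjusted p under 0.05. The filled points are the 6 genes called in WT and the 4 called in Pctp-/- livers for diet, with none in either genotype panel.

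Among the desaturases, Scd2 rose in WT livers. Scd2 was at 1.06, 0.425 and 0.733 FPKM in WT chow, 2.38, 1.51 and 1.72 in WT MCD, 1.37, 0.741 and 0.862 in Pctp-/- chow and 1.60, 1.38 and 1.42 in Pctp-/- MCD livers. The diets did not overlap in either genotype, though in Pctp-/- livers only by 1.38 against 1.37 FPKM. The change was 0.73 in WT (SE 0.17, adjusted p = 0.00266 by limma) and 0.32 in Pctp-/- livers (SE 0.17, adjusted p = 0.127). With a pseudocount of 0.1 the WT change was 1.28, and in Pctp-/- livers the test was passed in 2 of 21 alternatives, among them that without Pctp-/- chow replicate 1 (adjusted p = 0.0435). Scd1, its liver paralog, was at 1118 to 1782 FPKM on chow and 1.35 to 3.27 on MCD, so the ratio of Scd1 to Scd2 went from 1300 to 2630 on chow to 0.671 to 2.31 on MCD. Of the 5461 stretches of 50 bases in Scd2 transcripts, 145 also occur in Scd1, so that reads there could be split between both genes. Beside the Scd2 rise stood the macrophage sums given for Elovl1 and stellate cell sums of 131 to 190.0 FPKM against 29.5 to 56.0 on chow, and their part in it was not tested. Most of the stellate cell sum was Dcn, at 23.0 to 42.3 FPKM on chow and 114 to 155 on MCD, while Col1a1 had a mean of 1.97 in WT chow and 1.75 in WT MCD and Acta2 2.45 and 1.55, neither called.

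Fads6 was at 44.4, 39.6 and 39.7 FPKM in WT chow, 63.4, 56.5 and 46.3 in WT MCD, 45.6, 40.8 and 32.8 in Pctp-/- chow and 51.6, 46.2 and 42.7 in Pctp-/- MCD livers. The WT diets did not overlap, while the Pctp-/- diets did. The change in WT was 0.41 (SE 0.14, adjusted p = 0.0237 by limma) and that in Pctp-/- livers was 0.24 (SE 0.14, adjusted p = 0.166). The WT call was the least firm of the 6: it was lost in 7 of 22 alternative analyses, among them all 3 other scalings (adjusted p 0.0647 to 0.112) and those without WT chow replicate 2, WT chow replicate 3, WT MCD replicate 1 or WT MCD replicate 2 (adjusted p 0.0641 to 0.0979).

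Fads2, the delta-6 desaturase at the entry of the polyunsaturated pathway, was at 338, 226 and 234 FPKM in WT chow and 487, 340.2 and 342 in WT MCD livers. In Pctp-/- livers it was at 270.2, 237 and 214 on chow and 264, 399 and 206 on MCD. The WT MCD livers were all above the WT chow livers, the closest pair being 340.2 and 338, while the Pctp-/- diets overlapped widely. The change was 0.55 in WT (95% interval 0.05 to 1.06, adjusted p = 0.0586 by limma) and 0.22 in Pctp-/- livers (-0.28 to 0.73, adjusted p = 0.451). In WT it was 0.38 without WT MCD replicate 1, the highest library, and passed the test in 5 of 22 alternatives, with 0.74 without WT chow replicate 1. In Pctp-/- livers it was -0.04 without Pctp-/- MCD replicate 2.

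Fads1, the delta-5 desaturase, was level across the groups. It was at 217, 189.9 and 183 FPKM in WT chow, 195, 203 and 178 in WT MCD, 204, 179 and 163 in Pctp-/- chow and 169, 217 and 160.5 in Pctp-/- MCD livers. The changes were -0.03 (95% interval -0.31 to 0.24) in WT and -0.01 (-0.28 to 0.27) in Pctp-/- livers, which leaves room for changes of up to about 0.3 in either direction. Fads3 ranged from 2.52 to 6.02 FPKM in the 4 groups, with its highest and its lowest value both among the WT MCD livers, and its changes with diet were -0.08 (95% interval -0.61 to 0.46) and -0.11 (-0.65 to 0.42). As Fads2 and Fads1 act in one chain of reactions, their ratio of FPKM was also taken within each liver. It was 1.19 to 1.56 in WT chow, 1.31 to 1.32 in Pctp-/- chow, 1.68 to 2.50 in WT MCD and 1.28 to 1.84 in Pctp-/- MCD livers, so that WT diets did not overlap and Pctp-/- diets did. The ratio of Elovl5 to Elovl2 was 2.25 to 2.75 in Pctp-/- chow livers and 1.68 to 2.13 in the other 3 groups.

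The second question was whether loss of Pctp changed these genes on either diet. On chow none of the 9 was called, beside 0.136% of all genes tested, and none had an unadjusted p under 0.05, beside 6.98% of all genes (limma). The estimates were positive for 4 genes and negative for 5. Elovl3 was the one gene whose groups did not overlap, beside 10.6% of all genes, with all 3 Pctp-/- livers (168 to 219 FPKM) above the WT livers (90.5 to 165). Its change was 0.67 (95% interval -0.04 to 1.38, adjusted p = 0.732), and the adjusted p was 0.355 or more in all 22 alternatives. Pitx3, which shares the Elovl3 locus on the other strand, was at 6.81 to 10.4 FPKM in Pctp-/- chow and 1.03 to 7.13 in WT chow livers. The clock genes summed to 90.7 to 134 FPKM in Pctp-/- chow and 209 to 335 in WT chow livers, with 3 of 13 called lower. The largest part of that sum was Nr1d1, with means of 41.0 and 95.7 FPKM. Of the 13 estimates 9 were below 0 and 4 above. Arntl was at 6.12 to 7.70 FPKM in Pctp-/- chow and 1.415 to 4.26 in WT chow livers. Npas2 was at 0.719 to 1.69 and 0.0913 to 0.258 FPKM. The part of the clock genes in the Elovl3 values was not tested. For the other 8 genes the fitted changes lay between -0.20 (Elovl2) and 0.20 (Scd2), and their intervals all held 0.

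On MCD none of the 9 was called either, beside 0.818% of all genes tested. Elovl1 was the one gene with an unadjusted p under 0.05, beside 16.3% of all genes, and the one whose groups did not overlap, beside 26.6% of all genes. Its change was -0.45 (95% interval -0.70 to -0.21, unadjusted p = 0.00151, adjusted p = 0.0871, limma), and its adjusted p ranged from 0.0568 to 0.317 over 22 alternatives. All 9 estimates were below 0, with a median of -0.22 beside -0.09 over all genes, of which 70.3% were below 0. That count was 8 of 9 after quantile normalization, beside 51% of all genes below 0, and 7 of 9 after median-of-ratios scaling, beside 51.8%. Fads3, and with the latter scaling also Fads1, lay above 0 there. Fads2 had the estimate farthest from 0, -0.46 (SE 0.23, adjusted p = 0.35), and its value was -0.72 without Pctp-/- MCD replicate 2 and -0.24 without Pctp-/- MCD replicate 3. The macrophage markers were also lower in Pctp-/- MCD livers in all 7 estimates, none called, with sums of 278 to 345 FPKM against 268 to 521 in WT MCD, and their part in the Elovl1 values was not tested.

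Whether the diet response itself differed between the genotypes was tested by the difference of both diet effects. None of the 9 was called, beside 0.0963% of all genes, and 1 of 9, Elovl1, had an unadjusted p under 0.05, beside 15.1% of all genes (limma). The rise of Elovl1 was smaller in Pctp-/- livers by 0.54 (95% interval -0.89 to -0.20, unadjusted p = 0.00486, adjusted p = 0.151). For Elovl3 the difference was -0.85 (-1.85 to 0.16), for Elovl5 -0.42 (-0.87 to 0.04) and for Scd2 -0.41 (-0.92 to 0.10). The calls of Scd2 and Fads6 in WT and not in Pctp-/- livers are therefore not shown to differ between genotypes. Fads1, with a difference of 0.03 (-0.36 to 0.42), was the only 1 of the 9 with a positive estimate, where 64.6% of all genes were below 0. Elovl2 was positive too under the other 3 scalings and Fads3 under 2 of them, with 51.7% to 59.7% of all genes below 0.

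The 9 genes also varied among livers of the same group. Each group mean was removed, and Pearson correlations were taken between the 9 genes over the 12 libraries. The highest were 0.863 for Elovl5 with Fads1, 0.842 for Elovl5 with Fads2 and 0.832 for Fads1 with Fads2. Elovl2 and Elovl3 had a correlation of 0.824, and the most negative values were those of Elovl1 with Elovl3 (-0.487) and Elovl2 (-0.38). These are descriptions over 12 libraries of unequal depth, and such correlations of other genes were not set beside them. Over all 12 libraries without removal of group means, the genes whose profile was most like Elovl3 were Grhpr (Pearson r = 0.987), Usp10 (0.986) and Scp2 (0.985), and S100a10 (0.988) and Nupr1 (0.986) were among those most like Elovl1. Scd2 was most like Tgfbr2 (0.978), Coro1a (0.976) and Arhgap18 (0.974). Elovl5 was followed most closely by Gldc (0.962), Tbc1d4 (0.959) and Pomt2 (0.958), and Elovl2 by Kansl2-ps (0.929), Pptc7 (0.922) and Mxd1 (0.918). The 3 nearest genes were Nfe2l1 (0.913), Thbd (0.909) and Prkar1a (0.904) for Fads2, and Ap2b1 (0.945), Tex2 (0.939) and Cdk17 (0.932) for Fads6. For Fads1 they were Erc1 (0.851), Fbxo38 (0.8) and Cux1 (0.787), and for Fads3 Slx4ip (0.839), Slc22a3 (0.817) and Gm6142 (0.801). Fads1 and Fads3 thus had no neighbour as close as those named for the other genes. The profiles of the genes called with diet carry the step between diets, whereas Fads1 and Fads3 were called with diet in neither genotype. Fads2 was called in neither genotype as well, with its 3 nearest genes at 0.904 to 0.913.

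The surrounding pathway was followed with 54 further genes, of which 43 could be tested. With MCD feeding 16 of the 43 rose and 19 fell in WT livers, and 8 rose and 20 fell in Pctp-/- livers, with median changes of -0.16 and -0.33. That is 35 and 28 of 43 called, beside 57% and 50.3% of all genes, and the counts of the smaller lists that follow stand beside the same shares. For genotype none of the 43 was called on chow, with 3 at an unadjusted p under 0.05, beside 6.98% of all genes (limma). None was called on MCD either, with 11 at an unadjusted p under 0.05, beside 16.3% of all genes (limma). The genotype groups did not overlap for 3 of the 43 on chow, beside 10.6% of all genes, and for 17 on MCD, beside 26.6%. Among the partners that complete the elongation cycle, 4 of 5 tested were called in WT (3 higher, 1 lower) and 3 of 5 in Pctp-/- livers (2 higher, 1 lower). Tecr, the enoyl-CoA reductase that ends each round, fell with Elovl2, Elovl3 and Elovl5, by 0.84 in WT and 1.05 in Pctp-/- livers. Of the electron donors that serve the desaturases, 3 of 5 were called in WT (2 higher, 1 lower) and 2 of 5 in Pctp-/- livers (2 lower). These shares were near or below those of all genes. Cyb5r3, the cytochrome b5 reductase, fell by 1.06 and 0.99.

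Scd1, the main delta-9 desaturase of adult liver, had a change of -8.94 in WT and -8.73 in Pctp-/- livers, called in both, and Scd3 and Scd4 were at 0.120 FPKM or less in every library. Elovl4 was at 0.0204 FPKM or less throughout, and Elovl7 was at most 0.261 FPKM in all libraries but WT MCD replicate 1, where it was 1.51. Elovl6, which elongates palmitic acid, rose by 0.89 in WT livers (adjusted p = 0.0064 by limma) and was at -0.26 in Pctp-/- livers (adjusted p = 0.379). Srebf1, which encodes SREBP-1, fell by 2.10 and 2.04, with 26.3 ± 6.11 FPKM in WT MCD against 115 ± 17.3 in WT chow livers (SD, n = 3). Of the 10 transcriptional regulators 8 were called in WT (2 higher, 6 lower) and 6 in Pctp-/- livers (all lower). Insig2, a brake on SREBP processing, rose by 0.49 in WT (adjusted p = 0.0394) and was at -0.02 in Pctp-/- livers, and its WT call was lost in 7 of 22 alternatives. Insig1, its sterol-responsive relative, was at -0.10 in WT and fell by 0.48 in Pctp-/- livers (adjusted p = 0.0233), a call lost without Pctp-/- chow replicate 1 (adjusted p = 0.091), Pctp-/- MCD replicate 1 (adjusted p = 0.0508) or Pctp-/- MCD replicate 2 (adjusted p = 0.0847).

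Farther from the 9 enzymes, 5 of 6 acyl-CoA synthetases were called in WT (2 higher, 3 lower) and all 6 in Pctp-/- livers (2 higher, 4 lower). The largest change was that of Slc27a5, a bile acid and very long chain acyl-CoA synthetase, which fell by 2.41 and 1.83. In the peroxisomal pathway that shortens very long chains, 8 of 9 were called in WT (2 higher, 6 lower) and 6 of 9 in Pctp-/- livers (1 higher, 5 lower). Abcd2, a peroxisomal transporter of very long chain acyl-CoA, went against most of that list and rose by 2.05 and 2.66. Of the 4 acyltransferases that place polyunsaturated chains in phospholipids, 3 were called in each genotype (2 higher, 1 lower), and Lclat1 rose by 0.69 and 0.81. Of the 5 eicosanoid enzymes 2 could be tested. Alox5ap, a leukocyte protein needed for leukotriene synthesis, rose by 1.13 in WT (adjusted p = 0.0178, not called without WT chow replicate 2, at 0.0752, or WT MCD replicate 1, at 0.0806) and 0.97 in Pctp-/- livers (adjusted p = 0.0398, not called in 7 of 21 alternatives).

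**Figure D4:**
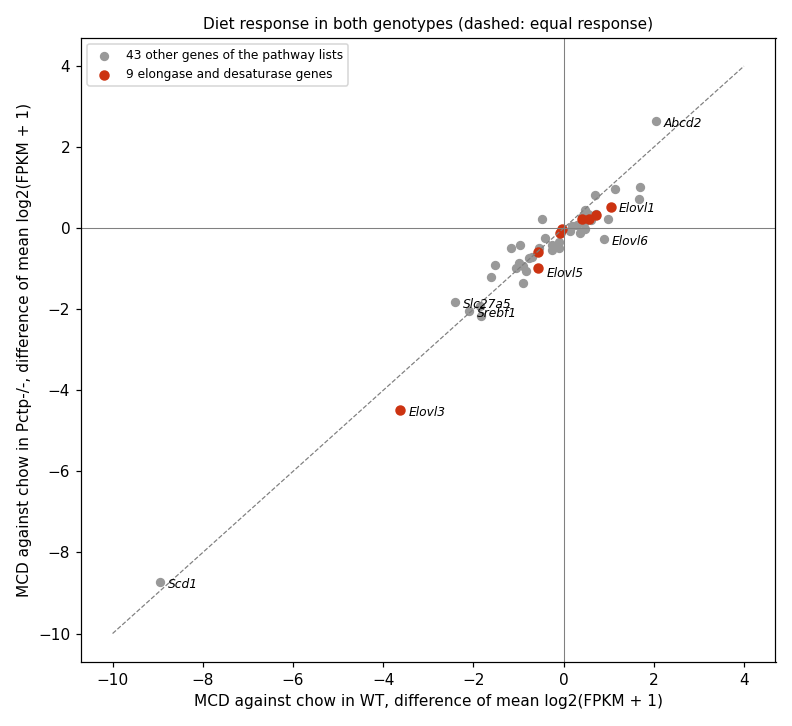
Change with MCD in WT (horizontal axis) against that in Pctp-/- livers (vertical axis), both as difference of mean log2(FPKM + 1), for the 9 elongase and desaturase genes (red) and the 43 tested genes of the surrounding pathway (grey), with a dashed line of equal response. Elovl3 (-3.64 and -4.48) and Scd1 (-8.94 and -8.73) lie far below 0 on both axes, and Elovl6 (0.89 and -0.26) lies off the line.

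Marker lists show the cell types and states that moved beside the 9 genes. In WT livers 34.5% of all genes were called higher with diet and 22.5% lower, and in Pctp-/- livers 26% and 24.4%. The counts called below stand beside these shares. The 6 hepatocyte markers summed to 39490 to 44470 FPKM on chow, 52670 to 59640 in WT MCD and 67420 to 73710 in Pctp-/- MCD livers. Most of that sum was Alb, with means of 27790 FPKM in WT chow, 28260 in Pctp-/- chow, 43900 in WT MCD and 57220 in Pctp-/- MCD livers. Apoa1 means went from 8458 to 6215 in WT and from 8843 to 6113 in Pctp-/- livers. Of the 6 markers 1 was called higher in each genotype, and 3 were called lower in WT and 2 in Pctp-/- livers. Of the 6 stellate cell markers Dcn, Lrat and Des were called higher in WT and Dcn and Lrat in Pctp-/- livers. Endothelial sums were 16.9 to 30.1 FPKM and cholangiocyte sums 2.54 to 8.66 in all 12 livers, with 1 of 5 endothelial markers called higher in WT and 1 of 3 cholangiocyte markers lower in Pctp-/- livers. Of the lymphocyte list only Ptprc, a gene of all leukocytes, was called higher in both genotypes, with means of 0.981 FPKM in WT chow and 4.20 in WT MCD, whereas the means of Cd3e and Cd79a were at most 0.857 FPKM in any group and not higher on MCD in either genotype. The adipocyte markers Adipoq, Retn and Plin1 summed to at most 0.179 FPKM. The 8 female-typical liver genes summed to 1.63 to 12.2 FPKM on chow, 343 to 437 in WT MCD and 650.1 to 796 in Pctp-/- MCD livers, with 7 of 7 tested called higher in both genotypes.

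**Figure D5:**
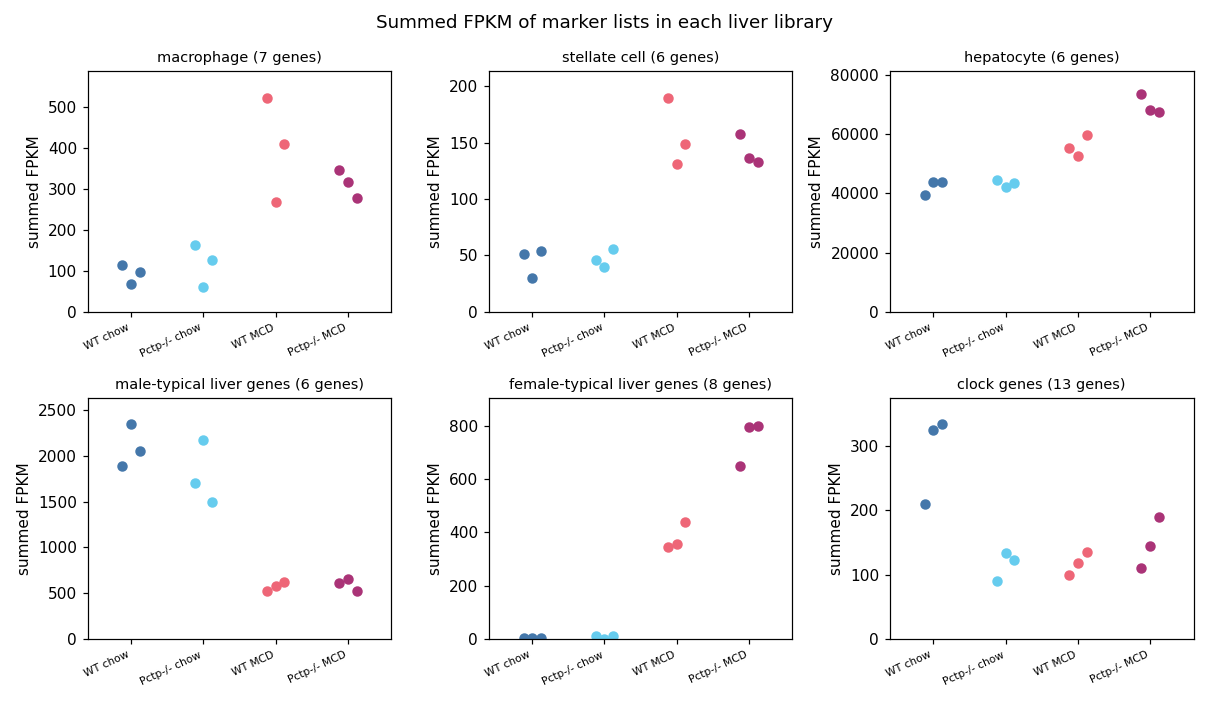
Summed FPKM (vertical axes, from 0) of 6 marker lists in each library of the 4 groups (horizontal axes), 1 point per library. The macrophage and stellate cell sums are higher in all MCD than in all chow livers, the male-typical sum is lower, and the clock gene sum of WT chow livers (209 to 335 FPKM) lies above all other groups. The clock gene sum pools genes with opposite signs, as 4 of the 13 estimates for genotype on chow were above 0 and 9 below.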

How the data were processed

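Total RNA of 12 livers was sequenced by a service company. The table that the authors deposited holds FPKM per Ensembl gene, on mouse build mm10 per the labels; the aligner, counter, annotation and use of strand are not given in the sources used here. A second deposited table of read and mapping statistics gave depth and quality. Symbols and positions came from GENCODE M21 (34490 of 35275 genes matched). FPKM are not counts, so the Wald test on counts named in the study's methods was replaced by limma 3.58.1 in R 4.3.3 on log2(FPKM + 1). A single model over all 12 libraries estimated a mean for each group with a variance that follows the expression level, and used two-sided tests and Benjamini-Hochberg adjustment over the 12466 genes with a mean of at least 0.5 FPKM, called at an adjusted p under 0.05. The procedure was tested on simulated data. The 9 genes, the pathway lists and the marker lists were chosen with earlier results of these data known, and the pathway genes named were Scd1, Elovl4, Elovl6, Elovl7, Srebf1, Insig1, Insig2 and the called gene with the largest change in each list and diet comparison; Scd3 and Scd4 were added after their values were seen. No 2 libraries held identical values. Precision is set by 3 animals per group. Alternatives covered the pseudocount, filter, scaling, libraries in the fit, trend, robust fit, replicate block and leaving out each library. Promoter windows came from RefSeq, and no protein sequences were used. For each of the 9 genes the 3 genes with the highest Pearson correlation over the libraries were named, except that 1 of them is not reported here.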

Additional observations from a re-analysis of the deposited data

Results flagged for a closer look

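Elovl6, an elongase outside the 9 genes, stood out because its genotypes were ordered in opposite ways on the 2 diets. It was at 7.199, 6.87 and 6.05 FPKM in WT chow, 13.5, 7.71 and 11.5 in Pctp-/- chow, 20.01, 11.2 and 10.4 in WT MCD and 9.66, 6.91 and 9.89 in Pctp-/- MCD livers. All Pctp-/- livers were above the WT livers on chow and below them on MCD. The genotype groups did not overlap for 10.6% of all genes on chow and 26.6% on MCD. Elovl6 was picked by this ordering, so the test of the same values is not separate support. For the difference of the diet effects 15.1% of all genes had an unadjusted p under 0.05 (limma). The difference of the diet effects was -1.15 (SE 0.33, unadjusted p = 0.00465, adjusted p = 0.148, limma), which did not pass the test, and its adjusted p ranged from 0.0813 to 0.337 over 21 alternatives. Neither genotype effect passed the test, at 0.60 on chow (adjusted p = 0.618) and -0.56 on MCD (adjusted p = 0.27).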

How the results depend on the processing

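The number of the 9 genes called ranged from 5 to 7 for diet in WT and from 4 to 6 in Pctp-/- livers over 22 alternatives, and was 0 for genotype on either diet over the same 22 and for the difference of the diet effects over 21. The calls of Elovl1, Elovl2, Elovl3 and Elovl5 held in both genotypes under all of them. Pathway calls ranged from 30 to 37 in WT and from 24 to 29 in Pctp-/- livers; for genotype on MCD, 1 pathway gene was called at a minimum mean of 5 FPKM and 0 to 1 when single libraries were left out. Of 18 same-numbered pairs of livers 8 correlated over 0.1 (range -0.097 to 0.225). Pairs with different numbers were not set beside them, so this cannot decide whether replicate numbers pair the livers. The replicate block gave 7 and 6 of the 9 genes for diet and 34 and 29 pathway genes in WT and Pctp-/- livers, and 0 of both elsewhere. Over all genes it gave 32 calls against 17 for genotype on chow, 115 against 102 on MCD, and 59 against 12 for the difference. Signs turned only for uncalled estimates, and the cause was not tested. After quantile normalization these were 0.0119 for Fads3 with genotype on MCD, 0.10 for Fads1 and 0.0688 for Insig2 with diet in Pctp-/- livers, and 0.0893 for Elovl2 and 0.038 for Fads3 in the difference. After median-of-ratios scaling they were 0.025 for Fads1 and 0.0044 for Fads3 with genotype on MCD, and 0.0709 for Elovl2 and 0.0446 for Fads3 in the difference, and Elovl2 was 0.0095 there when rescaled to a common sum. Leaving out single libraries gave these ranges: with genotype on chow, Fads2 -0.23 to 0.056, Fads3 -0.18 to 0.071 and Fads6 -0.17 to 0.0652; with genotype on MCD, Elovl3 -0.47 to 0.14, Fads1 -0.22 to 0.0007 and Fads3 -0.28 to 0.22; with diet in WT, Fads1 -0.0828 to 0.038, Fads3 -0.38 to 0.12 and Insig1 -0.24 to 0.0612; with diet in Pctp-/- livers, Fads1 -0.14 to 0.0785, Fads2 -0.0364 to 0.44, Fads3 -0.29 to 0.0389 and Insig2 -0.12 to 0.13; and in the difference, Elovl2 -0.18 to 0.0886, Fads1 -0.11 to 0.11 and Fads3 -0.23 to 0.26. Where a group kept 2 libraries, the spread was shared with the other groups. FPKM do not show how many reads stand behind Scd2 and Fads3, the lowest of the 9.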
